A study of Rattus norvegicus with 6 samples.

Results

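Complement is a cascade of plasma and tissue proteins that marks surfaces, recruits leukocytes and can lyse cells. The genes described here are 9 of its components: the recognition chains C1qa, C1qb and C1qc, the protease genes C1s and C2, the central component C3, the alternative pathway protease factor B (Cfb) and the receptor genes C3ar1 and C5ar1. They were chosen by gene name, and all 12 of their probes were kept, out of 45598 probes on the array. All 9 genes passed the filter on dim probes, as did all 12 probes, and stand among 19601 genes tested.

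RNA came from rat bone marrow stromal cells isolated from the marrow of tibias and grown for 7 days on titanium. On 3 arrays the surface carried a tantalum modification (Ta), and on 3 arrays it was simple titanium (Ti). The design text describes the 3 cultures of a group as independent experiments, and the labels do not say whether they came from different animals, so p-values measure the spread between these cultures. The rat strain, sex and age are not given in the sources used here. The scanner software set 62.7% to 65.9% of an array's spots as well above background. The 6 arrays lay on 1 slide, with all Ta arrays and Ti replicate 1 in its row 1 and Ti replicates 2 and 3 in row 2.

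As background, the classical pathway starts when C1q, a bundle of A, B and C chains, binds antibody, dying cells or debris and activates the proteases C1r and C1s. C1s cleaves C4 and C2, which together form an enzyme that cleaves C3, and fragments of C3 joined with factor B form the alternative pathway enzyme that amplifies this cleavage. The released fragments C3a and C5a act on the receptors encoded by C3ar1 and C5ar1. C1q is made chiefly by tissue macrophages and dendritic cells, whereas C3, factor B, C1r and C1s are also made by fibroblasts and other stromal cells, where inflammatory cytokines raise C3 and factor B.

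The complement genes did not move as a block. C3 and Cfb were higher on Ta, C3ar1 was lower, and C1s differed little between the surfaces. The 3 C1q genes had differences as large as that of C3ar1 but did not pass the test. Over all 9 genes, 2 rose, 1 fell and 6 did not pass an adjusted p of 0.05 in limma, where 4.12% of the genes tested passed, 2.65% higher and 1.47% lower on Ta. The groups did not overlap in 6 of the 9 genes, which compares with 35.8% of all genes tested. The median log2 difference of the 9 genes was -0.57, and that of all genes was 0.03. Of all genes, 520 were called higher and 288 lower, a balance that became 415 and 361 with median scaling, under which C3, Cfb and C3ar1 were still the members called. In what follows, levels are log2 processed signals scaled to a common 75th percentile, and differences are Ta minus Ti on that scale. Levels of different probes are not on a common scale and are not compared.

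**Figure D1:**
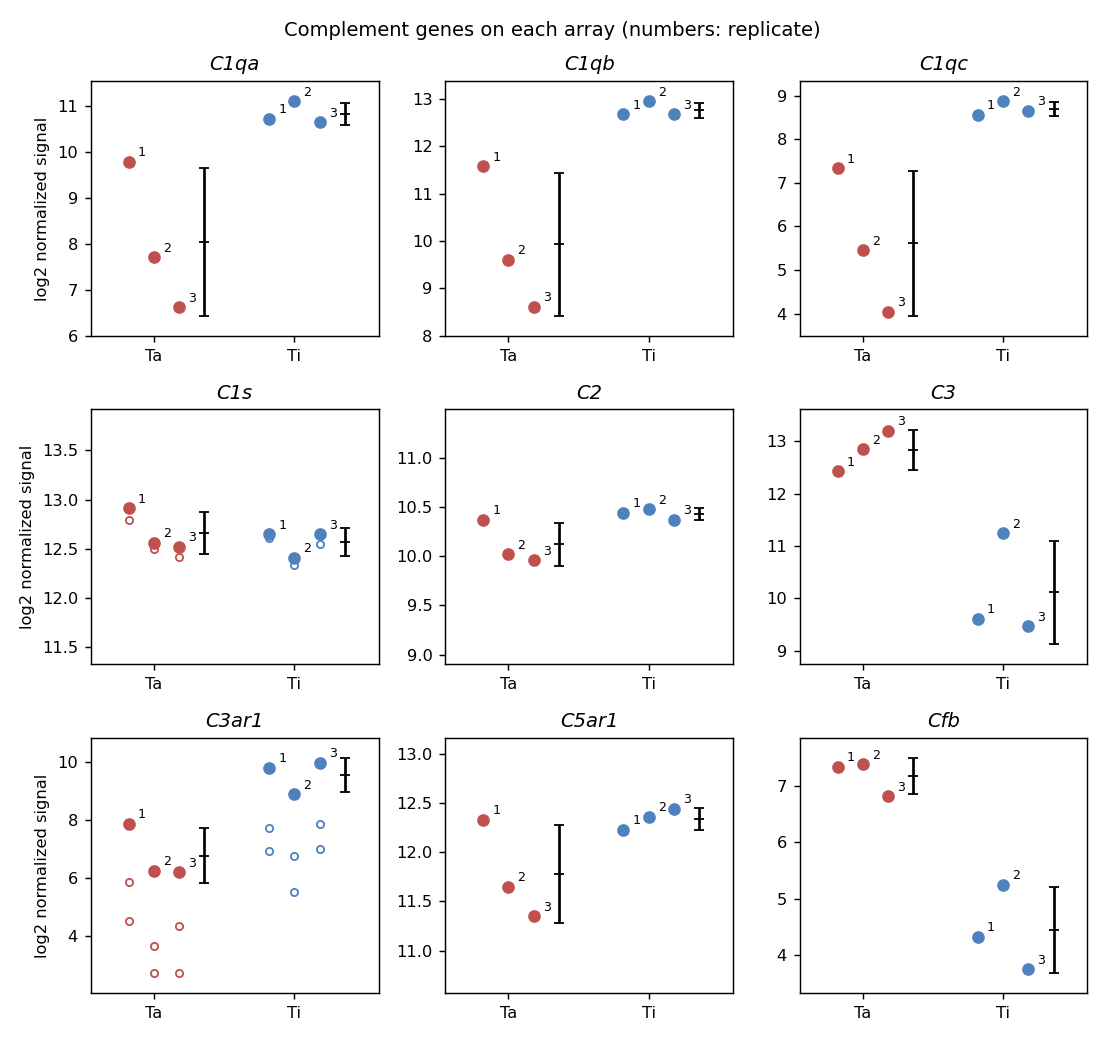
Log2 normalized signal (vertical axes) of the 9 complement genes on the 3 Ta (red) and 3 Ti (blue) arrays. Filled points are the probe tested, numbered by replicate, open points are other probes of C1s and C3ar1, and bars are mean and SD of 3 arrays. C3 and Cfb lie higher on every Ta array, and C1qa, C1qb, C1qc and C3ar1 lower.

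The array reads the C1q genes and the amplification genes through probes of 60 bases. The probes of the members whose results are opposite are shown because they are the sequences that were measured, in lower case and as the array file gives them. They begin at base 697 of the C1qa transcript, 435 of C1qc, 4797 of C3 and 2140 of Cfb.
C1qa: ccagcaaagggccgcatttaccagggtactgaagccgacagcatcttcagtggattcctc
C1qc: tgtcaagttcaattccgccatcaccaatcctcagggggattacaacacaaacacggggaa
C3: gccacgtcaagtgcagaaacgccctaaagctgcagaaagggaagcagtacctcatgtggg
Cfb: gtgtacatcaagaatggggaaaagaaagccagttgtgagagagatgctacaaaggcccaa

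C1qa, C1qb and C1qc are neighbours on chromosome 5 of the RefSeq rat assembly GRCr8, with C1qc between the other two. C1qb lay at 11.58, 9.6 and 8.61 on Ta replicates 1, 2 and 3 and at 12.68, 12.95 and 12.67 on the Ti replicates. Every Ta array was below every Ti array, and the Ti arrays were close together (SD 0.16, n = 3) while the Ta arrays were spread out (SD 1.51, n = 3). The difference was -2.83 ± 0.71 (limma SE, adjusted p = 0.0695), a mean level 7.11-fold lower on Ta that did not pass the test.

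C1qa lay at 9.79, 7.71 and 6.62 on Ta and at 10.73, 11.11 and 10.65 on Ti. The difference was -2.79 ± 0.76 (adjusted p = 0.0787). C1qc lay at 7.34, 5.46 and 4.04 on Ta and at 8.56, 8.87 and 8.65 on Ti. It had the largest C1q difference, -3.08 ± 0.77 (adjusted p = 0.0699). With normexp background correction its difference was the smallest of the C1q genes, at -1.77. In all 3 genes Ta replicate 1 was nearest to the Ti arrays and Ta replicate 3 farthest. Ta replicate 1 differed from the Ti mean by -1.04, -1.18 and -1.35 in C1qa, C1qb and C1qc, Ta replicate 2 by -3.12, -3.17 and -3.23, and Ta replicate 3 by -4.21, -4.15 and -4.65.

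The spread among the Ta arrays was far above that of the spots within an array. C1qa and C1qb were each printed on 10 spots, and the SD of the log2 signal over the spots of 1 array was between 0.025 and 0.132 for C1qa and between 0.037 and 0.082 for C1qb. Without Ta replicate 1 all 3 genes passed the test, with differences of -3.66, -3.66 and -3.94 (adjusted p = 0.00864, 0.00773 and 0.00983 in limma), in a fit that called 3218 of all genes. Without Ta replicate 3 the differences were smaller, at -2.08, -2.17 and -2.29 (adjusted p = 0.177, 0.161 and 0.144). The C1q genes also passed with normexp background correction at -2.39, -2.71 and -1.77 (adjusted p = 0.0323, 0.0314 and 0.0196), a setting that called 2602 genes, and with array weights, which called 10184.

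Among all genes with an established symbol, those nearest to C1qb over the 6 arrays were picked by the root mean square difference of log2 values after each gene was centred on its own mean. The nearest was C1qa, at 0.08. Igsf7 l1 followed at 0.15, C1qc at 0.18, Pla2g2d, which encodes a secreted phospholipase, at 0.24, Zc3h12d at 0.27 and Dpt, which encodes the matrix protein dermatopontin, at 0.29. By this measure C1qa and C1qc thus lay less than 0.2 log2 units from C1qb. On these arrays C1qb itself ranged from 8.61 to 12.95. The differences of Igsf7 l1 (-2.6), Pla2g2d (-3.03), Zc3h12d (-3.1) and Dpt (-2.37) also did not pass the test (adjusted p from 0.0577 to 0.0753). As these genes were picked on the same arrays, differences close to that of C1qb follow from the choice.

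RefSeq promoter windows of GRCr8, from 250 bases before to 50 after the start, were matched for 4 of the 9 genes (C1qa, C1qb, C3 and C3ar1). They were searched on both strands for GAGGAA, the core bound by PU.1, a factor of myeloid cells, for TTCNNNGAA, the GAS motif of STAT factors, and for the NF-kB consensus. No match of one motif overlapped a match of another. The bases before the start of C1qa and C1qb are shown because these 2 genes moved closely together, with matches in capitals.
C1qa (chr5:154419934-154420183, GRCr8, minus strand): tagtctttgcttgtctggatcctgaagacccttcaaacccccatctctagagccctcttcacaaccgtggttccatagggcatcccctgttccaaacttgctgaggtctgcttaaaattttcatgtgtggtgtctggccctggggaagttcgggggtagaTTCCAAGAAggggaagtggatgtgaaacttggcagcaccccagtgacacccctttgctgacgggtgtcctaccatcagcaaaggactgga
C1qb (chr5:154407828-154408077, GRCr8, minus strand): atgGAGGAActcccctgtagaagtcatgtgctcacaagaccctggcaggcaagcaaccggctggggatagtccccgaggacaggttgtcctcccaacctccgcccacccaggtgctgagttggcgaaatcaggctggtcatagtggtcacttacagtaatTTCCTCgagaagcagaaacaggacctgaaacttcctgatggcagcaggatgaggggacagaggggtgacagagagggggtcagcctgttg

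C1qb held GAGGAA at bases -247 to -242 and, on the other strand, at -90 to -85, as 27.6% of 33469 promoters held at least 1 match. C1qa held TTCNNNGAA at -90 to -82, a motif found in 8.87% of promoters, and no GAGGAA. The windows of C3 and C3ar1 held none of the 3 motifs, and the NF-kB consensus, found in 4.18% of promoters, was in none of the 4 windows. A match is a run of letters only and shows no binding.

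C1s, whose product is a protease of the C1 complex, was read by 2 probes. These begin at bases 2250 and 2261 of its transcript and share 49 bases, given in capitals. They are therefore not independent readings.
C1s, first probe: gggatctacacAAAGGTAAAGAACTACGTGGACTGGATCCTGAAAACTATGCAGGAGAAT
C1s, second probe: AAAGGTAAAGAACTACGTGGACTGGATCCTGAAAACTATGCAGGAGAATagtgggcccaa

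The second C1s probe lay at 12.91, 12.56 and 12.52 on Ta and at 12.65, 12.41 and 12.65 on Ti. The groups overlapped, and the difference was 0.10 ± 0.14 (adjusted p = 0.676), with 0.07 from the first probe. The sign turned with array weights (-0.06) and without Ta replicate 1 (-0.03). C1r, the partner protease of C1s and its neighbour on chromosome 4, differed by 0.24 ± 0.12 (adjusted p = 0.23). C2, the protease that joins cleaved C4, lay at 10.37, 10.02 and 9.96 on Ta and at 10.44, 10.48 and 10.37 on Ti, a difference of -0.32 ± 0.13 (adjusted p = 0.16). Ta replicate 1 lay within the Ti range, and the other Ta arrays were clearly below it, as the Ti SD was only 0.06. Without Ta replicate 1, C2 passed at -0.45 (adjusted p = 0.0293), and without Ta replicate 3 the difference was -0.24 (adjusted p = 0.386).

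C3, the component on which all complement pathways converge, lay at 12.43, 12.85 and 13.2 on Ta and at 9.61, 11.24 and 9.46 on Ti. Every Ta array was above every Ti array, and Ti replicate 2 was the highest of the Ti arrays. C3 rose by 2.72 ± 0.50 (n = 3 per group, adjusted p = 0.0462), a 6.59-fold higher mean level.

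Cfb is the neighbour of C2 on chromosome 20, and its product is the protease subunit of the alternative pathway enzyme. It lay at 7.35, 7.39 and 6.82 on Ta and at 4.32, 5.25 and 3.74 on Ti. Cfb rose by 2.75 ± 0.39 (adjusted p = 0.0397), a 6.73-fold higher mean level. It was well above background on 2 of the 3 Ti arrays, and its value on the third lay above the floor, which is the dimmest signal that still counted as well above background there. With normexp background correction the rise was 1.26 (adjusted p = 0.0127). The neighbours C2 and Cfb thus differed in opposite directions on these arrays, with C2 not past the test.

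In C3 and Cfb the distances of the Ta arrays from the Ti mean were more alike than in C1q. Ta replicate 1 lay 2.32 above the Ti mean in C3 and 2.91 above it in Cfb. Ta replicate 2 lay 2.75 and 2.95 above it, and Ta replicate 3 lay 3.1 and 2.38 above it. The 6 genes nearest to C3 were Slpi, which encodes a leukocyte protease inhibitor, and Slpi-ps2 (0.24 each), Fam20a (0.29), and Sstr4, Galnt14 and Ntn1 (0.31 each). Slpi-ps2 carries the name of a pseudogene of Slpi, so these 2 probes may share signal. Of the 6, all but Fam20a (2.4, adjusted p = 0.0757) rose, by 2.74 to 2.99. They were picked for likeness to C3 on the same arrays, so differences close to that of C3 follow from the choice.

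C3ar1 encodes the receptor of C3a, found mostly on myeloid cells. Its brightest probe lay at 7.88, 6.26 and 6.2 on Ta and at 9.82, 8.91 and 9.99 on Ti. Every Ta array was below every Ti array, with Ta replicate 1 the nearest to them. C3ar1 fell, with a difference of -2.79 ± 0.52 (adjusted p = 0.0475) and a 6.92-fold lower mean level. The other 2 probes gave -2.82 and -3.16. The dimmest of the 3 was well above background on 1 of the 3 Ta arrays, and its difference was -2.65 with the Ta values raised to at least the floor. Adjusted over all probes, the 3 gave limma p-values of 0.0463, 0.0536 and 0.0485. All 3 read the same gene and are not independent.

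C5ar1, the gene of the C5a receptor of neutrophils and macrophages, lay at 12.33, 11.65 and 11.35 on Ta and at 12.23, 12.36 and 12.44 on Ti. The groups overlapped because Ta replicate 1 lay within the Ti range, and the difference was -0.57 ± 0.25 (adjusted p = 0.188). Without Ta replicate 1 it passed at -0.84 (adjusted p = 0.0188), and without Ta replicate 3 the difference was -0.35 (adjusted p = 0.421). Its neighbour C5ar2, which encodes a second C5a receptor, differed by -0.25 (adjusted p = 0.346).

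The calls of C3, Cfb and C3ar1 rested on the full set of arrays. Each was kept in the fit that omitted Ta replicate 1 and in the one that omitted Ti replicate 2, and lost when any of the other 4 arrays (Ta replicates 2 and 3, Ti replicates 1 and 3) was omitted. Limma called 0 of all genes in each of the 4 fits that lost them (3815 to 4472 at an unadjusted p under 0.05). The differences themselves stayed between 2.4 and 3.29 for C3, 2.4 and 3.15 for Cfb and -3.35 and -2.5 for C3ar1. The highest adjusted p in these fits was 0.168 for C3, 0.165 for Cfb and 0.172 for C3ar1. A fit blocked on slide row rests on row 1, where Ti replicate 1 is the lone Ti array and is assumed to vary like the others. Its differences were 3.21 for C3, 2.86 for Cfb, -3.04 for C3ar1 and -2.94 to -2.68 for the C1q genes. No gene (0) passed in that fit (3837 at an unadjusted p under 0.05). Row 2 held no Ta array, so no value could be had within it.

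**Figure D2:**
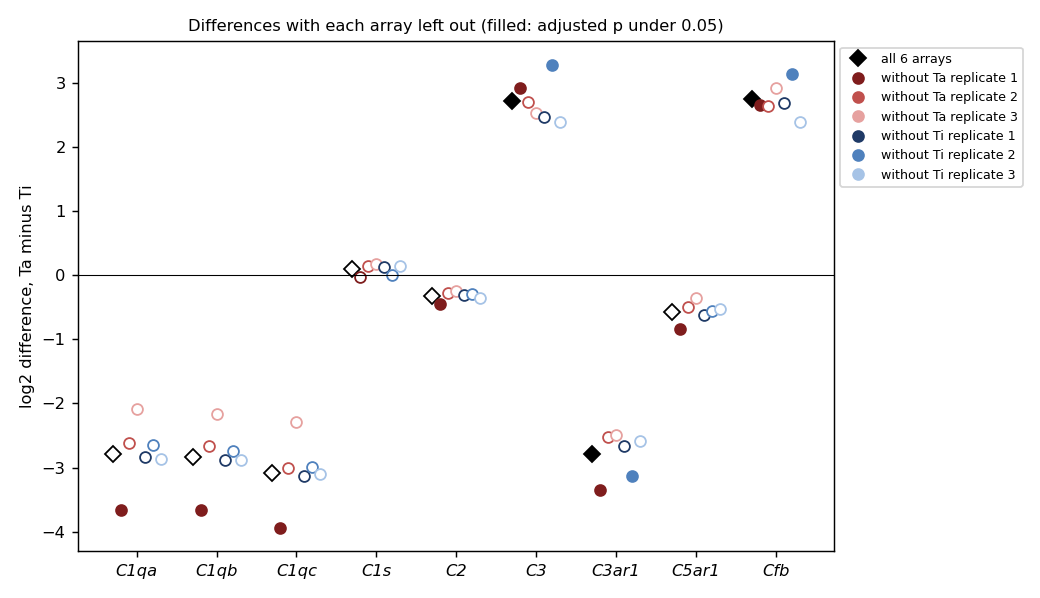
Log2 difference, Ta minus Ti (vertical axis), of each complement gene with all 6 arrays (diamonds) and with each array left out (circles). Filled symbols passed an adjusted p of 0.05. The differences of C3 and Cfb stayed at 2.4 or more and those of C3ar1 at -2.5 or less, and the C1q genes passed only without Ta replicate 1.

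The rest of the pathway was examined through 47 other complement genes on the array, of which 33 passed the filter on dim probes. Of these, 1 rose, 2 fell and 30 did not pass, with a median difference of -0.15. C4bpa, C9 and Cfp, the 3 that passed, lost their calls, like the members, when Ta replicate 2 or 3 or Ti replicate 1 or 3 was omitted. The groups did not overlap in 6 genes that were higher on Ta, where 19.5% of all genes did so, and in 6 that were lower (16.3%).

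Among genes that start the cascade, 8 of 15 were tested and 0 passed (median 0.06). C4b, the main C4 gene, differed by 0.08 ± 0.29 (adjusted p = 0.878), though C4a and C4b are near-identical genes whose probes are uncertain. Ptx3, which encodes a pattern recognition protein that binds C1q, lay at 12.71, 12.73 and 12.49 on Ta and at 11.35, 12.2 and 11.55 on Ti. It differed by 0.95 ± 0.23 (adjusted p = 0.0656).

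Among 7 tested genes of the alternative and terminal pathways, 2 fell, 0 rose and all 7 were below 0 (median -0.81), C6 by only -0.02. Of all 19601 genes tested, 1.47% fell and 9053 were below 0. Cfp encodes properdin, which stabilizes the alternative pathway enzyme. It lay at 5.43, 4.99 and 4.99 on Ta and at 6.09, 6.12 and 6.7 on Ti, and fell, with a difference of -1.17 ± 0.21 (adjusted p = 0.0453), or -0.4 with normexp background correction. Cfb and Cfp, which act on the same enzyme, thus changed in opposite directions. C9, which forms the membrane pore, did not rise well above background on the Ta arrays, so it passed the filter only through the Ti arrays. With the floor it was 1.62-fold lower on Ta than on Ti, from measured means of 3.45 and 4.26. The measured values, with no floor, gave -0.81 ± 0.12 (adjusted p = 0.0407). With normexp the C9 difference was -0.11 (adjusted p = 0.29). Its call was also lost with the trend and robust settings of limma (adjusted p = 0.0649).

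C7, another terminal component, differed by -2.13 ± 0.58 (adjusted p = 0.0798), or -1.82 with the floor. With normexp it was -0.55 and passed (adjusted p = 0.0303). Cfd, the gene of factor D, which cleaves factor B, lay at 12.04, 10.36 and 10.12 on Ta and at 11.64, 12.29 and 11.81 on Ti. Ta replicate 1 was within the Ti range, as in C2 and C5ar1, and the difference was -1.08 ± 0.51 (adjusted p = 0.217).

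Of 11 tested regulators, 1 rose, 0 fell and 10 did not pass (median 0.15). C4bpa encodes a chain of the C4b-binding protein, an inhibitor of the classical pathway. It lay at 5.92, 6.07 and 6.49 on Ta and at 3.2, 4.52 and 3.81 on Ti, and rose by 2.31 ± 0.34 (adjusted p = 0.0408). It was well above background on 2 of the 3 Ti arrays, and the rise was 2.25 with the floor and 0.87 with normexp. The partner chain gene C4bpb differed by 0.19 ± 0.13 (adjusted p = 0.372). Cd59b, which encodes a membrane inhibitor of the pore, differed by -0.95 ± 0.29 (adjusted p = 0.0943).

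Of 7 other receptor genes tested, 0 passed and 6 were below 0 (median -0.47), where 9053 of all 19601 genes tested were below 0. Vsig4, a receptor of C3 fragments on tissue macrophages, lay at 5.34, 3.59 and 2.03 on Ta and at 6.32, 5.96 and 6.41 on Ti. Its Ta arrays were ordered as in C1q, with replicate 1 nearest to Ti, and it differed by -2.58 ± 0.78 (adjusted p = 0.0933), or by -2.05 with the floor. With normexp the difference was -0.77 and passed (adjusted p = 0.0212). Itgax, a chain of complement receptor type CR4, differed by -1.69 ± 0.65 (adjusted p = 0.147), or -0.51 with normexp (adjusted p = 0.117). Itgam and Itgb2, the chains of CR3, differed by -0.22 and -0.47 (adjusted p = 0.6 and 0.249).

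Single arrays also decided calls among these genes. Without Ta replicate 1, C7 (-2.65), Cfd (-1.68), Cd59b (-1.22) and Vsig4 (-3.42) passed (adjusted p from 0.0137 to 0.0276). Without Ti replicate 2, Ptx3 (1.19) and Itgax (-2.47) passed, each with an adjusted p of 0.0294. Without Ta replicate 3, C7 differed by -1.49, Cfd by -0.72 and Vsig4 by -1.77, and none of these passed (0; adjusted p from 0.141 to 0.481). With normexp, Ptx3 (0.93) and Cd59b (-0.93) passed as well (adjusted p = 0.0271 and 0.0472).

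Markers of the cells that the marrow cultures could hold were set beside these genes. Of the stromal list, 12 of 13 passed the filter on dim probes and Lepr stayed below that level throughout. This shows that these RNAs were present and not what share of the cells was stromal. Macrophage markers were also present: 21 of 23 were tested, Marco was well above background nowhere, and Timd4 on 1 Ti array. Of these 21, 0 rose and 1 fell (Cd5l, -4.22 ± 0.75, adjusted p = 0.0453). Cd5l was well above background on 2 of the 3 Ta arrays, and its difference was -3.86 with the floor. Of the 21, 17 were below 0 (median -0.49), where 9053 of all 19601 genes tested were below 0. The log2 of the summed signal of the 21 was between 16.65 and 17.87 on Ta and between 17.94 and 18.3 on Ti. Ta replicate 1 was the highest of the Ta arrays, the same order as in C1q. Such a sum leans on the brightest probes. Among them was Lyz2, at 16.01, 14.27 and 12.74 on Ta and at 16.85, 16.37 and 16.94 on Ti.

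The macrophage markers did not all move alike. Siglec1 differed by -2.50, Lyz2 by -2.38 and Trem2 by -2.0, each from the brightest probe. The other probes of Lyz2 gave -2.85 and -0.51. By contrast, Cd68 differed by -0.28, Spi1 by -0.25, Adgre1 by -0.15 and Cd14 by 0.34. Of these 7, chosen after their values were seen, none passed the test (0; adjusted p from 0.054 to 0.746). Of the 21 tested, the groups did not overlap in 3 that were higher on Ta (19.5% of all genes) and in 8 that were lower (16.3%). The 3 included Cx3cr1 (0.5, adjusted p = 0.1 in limma) and Fcgr1a (0.41, adjusted p = 0.0662). In bulk RNA, fewer macrophages and less of these RNAs per macrophage cannot be told apart, and the part of macrophage number in the C1q, C3ar1 and Vsig4 values was not tested.

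**Figure D3:**
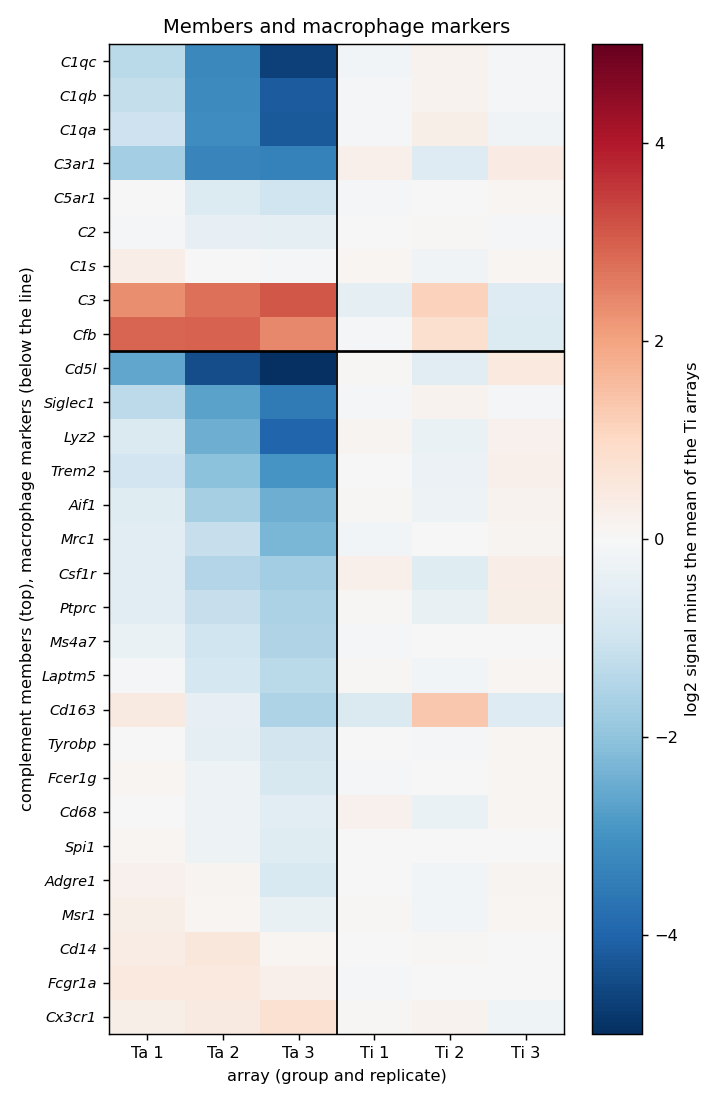
Log2 signal of each gene minus its mean over the Ti arrays (colour scale), on the 6 arrays (columns), for the 9 complement members (above the line) and 20 of the 21 tested macrophage markers (below). The C1q genes are nearest to the Ti mean on Ta replicate 1, as are Cd5l, Siglec1 and Lyz2, while the mean differences of Cd68 and Adgre1 are no larger in size than 0.28.

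Of 10 neutrophil markers listed, 4 were tested. S100a8 and Camp rose, by 2.95 and 1.68 (adjusted p = 0.0447 and 0.0453), while Mpo (1.66, or 1.5 with the floor, adjusted p = 0.0517) and Csf3r (-0.88, adjusted p = 0.232) did not pass. S100a9, Ngp, Elane, Ltf and Cxcr2 were well above background nowhere, and Mmp8 on 2 Ti arrays only, with means of 2.47 on Ta and 4.6 on Ti. The log2 summed signal of the 4 tested was between 8.25 and 9.3 on Ta and between 6.92 and 7.5 on Ti. That of the 12 stromal markers was between 17.68 and 17.87 on Ta and between 17.51 and 17.56 on Ti. Of the 12, 2 rose (Thy1 by 0.67 and Cxcl12 by 1.06), 0 fell and 10 did not pass. Their median was 0.18, with 8 above 0 and 4 below it. Over all genes tested, 2.65% were called higher. The groups did not overlap in 5 stromal markers that were higher on Ta (19.5% of all genes) and in 1 that was lower (16.3%). Other probes gave 0.36 for Thy1 and 0.65 and 1.33 for Cxcl12. The part of either list in the C3 and Cfb values was not tested. Of 5 tested endothelial markers none passed (0; median -0.52), with summed levels of 7.39 to 7.89 on Ta and 7.99 to 8.42 on Ti. Of 7 lymphocyte markers only Cd8a was tested (-2.45, adjusted p = 0.0726), and it did not pass.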

How the data were processed

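Total RNA of 6 cultures was labelled with Cy3 and hybridised to 1-colour Agilent arrays. The deposited values are spot intensities. Per the file headers, the processed signal was made with spatial and multiplicative detrending switched on and background correction off. Agilent Feature Extraction 12.0 and limma are the tools listed in the submitters' processing notes. The flags for background, outliers and saturation are the authors' deposited scanner output. The deposited value table equalled the processed signal in 100% of values.

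The log2 processed signal was scaled to the 75th percentile of the 58717 non-control spots of each array. Spots flagged as outliers were left out before the spots of a probe were averaged. Probes well above background on at least 3 of 6 arrays and with a value on every array were kept (25756 probes), and the brightest probe stood for a gene (19601 genes). Names came from the file of Ta replicate 1, updated through RefSeq (GRCr8) for 30650 of 45598 probes. No genome sequence was needed beyond the RefSeq promoter table.

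Ta and Ti were compared with limma 3.58.1 in R 4.3.3 (two-sided, Benjamini-Hochberg, threshold 0.05), a procedure tested on simulated data. SE is the moderated SE of limma, which understates the spread of the most variable genes. A floored difference raises values not well above background to the floor of their array. Precision is limited by having 3 arrays per group. Alternatives tried were other scalings, normexp (offset 50), other filters and probe rules, replicate number or slide row as a block, trend and robust settings, array weights and leaving out each array. Named genes are all members, other complement genes past the test or among the largest 8 differences, the 6 genes nearest to C1qb and C3, and others given as role partners (C1r, C4b, C4bpb, C5ar2, Itgam, Itgb2) or markers, chosen after their values were seen. The values of 1 macrophage marker are not reported here, though it counts in its list. The members and lists were chosen with earlier results of these data known.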

Additional observations from a re-analysis of the deposited data

How the results depend on the processing

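With all 6 arrays limma called 808 genes, 3 of the 9 members and 3 of the other complement genes. These 3 counts were 2602, 6 and 8 with normexp background correction, and 10184, 8 and 19 with array weights (7.35 for Ta replicate 2, and 0.318 to 2.76 elsewhere). All 3 counts were 0 with no filter on dim probes (5814, 6 and 12 at an unadjusted p under 0.05) and also 0 in the fit blocked on slide row (3837, 3 and 7). With trend and robust settings 2103 genes were called in all. Without single arrays the counts ranged from 0 to 3218, from 0 to 8 and from 0 to 9. The cause of these changes was not tested. The fit with no filter adjusted over 34903 genes.

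The replicate block left 8 genes called, 0 members and 0 other complement genes (5100, 6 and 10 unadjusted). For numbers 1, 2 and 3 the Ta and Ti arrays deviated from their means with correlations of 0.06, 0.13 and -0.18. Of the 6 arrays, 3 correlated best with their own number in the other group. With 3 arrays per group, this check cannot tell whether the numbers mark shared animals or days. The members and the other complement genes past the test or among the largest 8 differences were followed through all settings. Of these, only C1s changed sign, with array weights (-0.06) and without Ta replicate 1 (-0.03, in a range from -0.03 to 0.17). C1s was never called. The role partners, such as C4b and C1r, were not followed in this way. Median, quantile and detected-probe scaling and the mean of probes kept the same 3 members called. Cfb was not tested when all 6 arrays had to be well above background. Signal near background limits Cfb, C4bpa, Cfp, C9, C7, Vsig4 and Itgax, whose differences were smaller with normexp. It also limits C1qc, which lay at 4.04 on Ta replicate 3, where the floor was 3.63. The differences of C1qc and C3ar1 shrank with normexp to -1.77 and -2.16, and both passed.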
